A study of Mus musculus with 2 samples.

Results

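Genes of arginine use and polyamine synthesis were followed in whole lungs of mice that carried Lewis lung carcinoma (LLC) cells. The 10 members were taken by symbol: the arginine-consuming enzymes Arg1, Arg2 and Nos2, the polyamine enzymes Odc1, Srm, Sms and Amd1, the Odc1 regulators Azin1 and Oaz1, and the polyamine acetylase Sat1. All probe sets annotated to these symbols were used. They were chosen with the ratios of these same arrays known, so those ratios are given as a description and support no claim about the group. The platform annotation held 17 such probe sets for 9 of the 10 members, on arrays that read 18193 genes singly. It listed none under the symbol Amd1. The 3 probe sets of Sms and 1 of the 2 of Oaz1 also list a pseudogene of that gene (Sms-ps, Oaz1-ps), so their signal cannot be assigned to 1 gene. Nos2 was below the intensity floor on both arrays, which left 7 members measured by a probe set of their own.

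The study set 2 groups of C57BL/6 mice, 6 to 8 weeks old, side by side, both sampled 19 days after 500000 tumour cells in 200 µL had entered a tail vein. The LLC line derives from a lung carcinoma of the same mouse strain and colonises the lung when given by this route. In the vector control lungs the cells carried the empty vector, and in the TDAG8 lungs they overexpressed TDAG8, a proton-sensing receptor encoded by Gpr65 that raises cyclic AMP at acidic pH. The injected cells carried the transgene, and the hosts were C57BL/6 in both groups. Each group was represented by 1 Affymetrix array, hybridised with the combined RNA of 10 lungs, so the spread between mice was not recorded. The labels do not say how many transfected clones were injected, and a tumour-free lung is not among the samples analysed here. With 1 array a group, no difference has a replicate check, a test or an SD, and precision is limited by the number of arrays.

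Arginine stands at a branch point. Arginases split it into ornithine and urea, whereas nitric oxide synthases turn it into nitric oxide and citrulline. Ornithine decarboxylase, the product of Odc1, makes the first polyamine, putrescine, from ornithine, and spermidine synthase (Srm) and spermine synthase (Sms) extend it with aminopropyl groups that Amd1 supplies by decarboxylating S-adenosylmethionine. Polyamines bind nucleic acids and are needed by dividing cells. Antizyme (Oaz1) binds ornithine decarboxylase and sends it to the proteasome, and antizyme inhibitor (Azin1) captures antizyme. Sat1 acetylates spermidine and spermine, which marks them for export or breakdown. Arg1 is abundant in liver and is also made by myeloid cells in tumours and in tissue with type 2 inflammation.

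Lungs with TDAG8-overexpressing tumour cells had higher signals of Arg1, Odc1 and Srm than vector control lungs, by 4.80-fold, 3.15-fold and 2.76-fold. Azin1, Oaz1 and Sat1 differed by less than 1.5-fold by the probe set that stood for each gene, and Arg2 was 1.54-fold lower. Thus 3 of 7 measured members were at least 2-fold higher and 0 were at least 2-fold lower, against 5.41% of the 11949 genes measured that were higher and 1.19% that were lower. By probe set with 1 gene symbol, 5 of the 12 measured for the members were at least 2-fold higher and 0 lower, against 4.87% and 1.13% of all such probe sets. The median log2 ratio of the 7 members was 0.34, and the median over all genes measured was 0.00. Of the 7 members 6 lay above 0. Since the members were selected on this contrast, nothing is read from these shares. Folds and log2 ratios are TDAG8 over vector control after centring, which moved every log2 ratio up by 0.06, while intensities are printed as deposited.

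**Figure D1:**
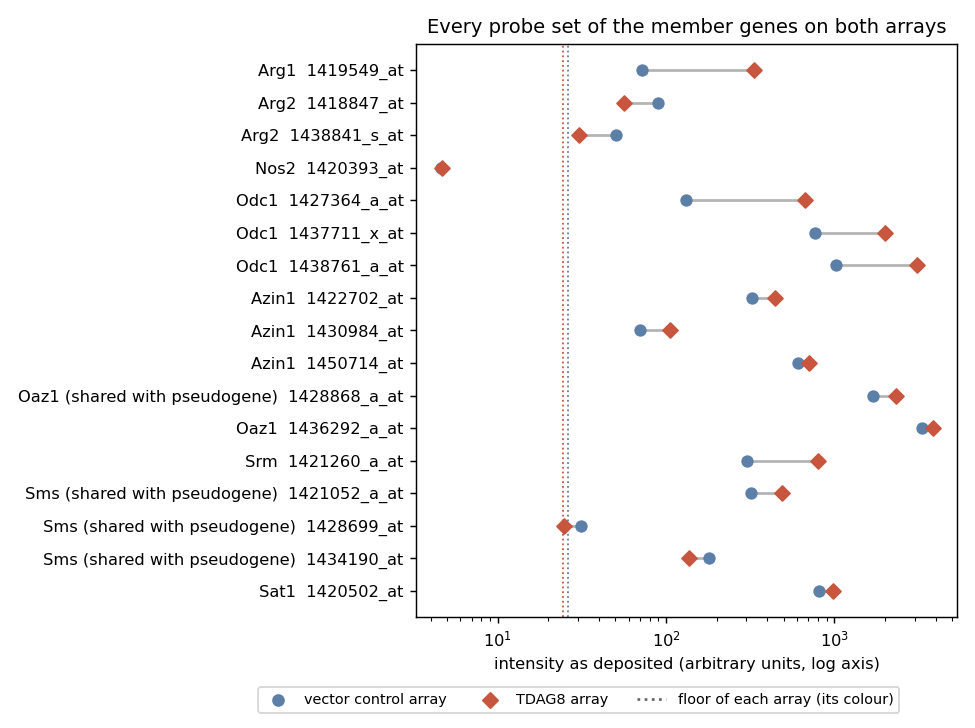
Deposited intensity of every probe set of the members (log axis) on the vector control array (blue circles) and the TDAG8 array (red diamonds), with each array's floor as a dotted line. The 3 Odc1 probe sets, Arg1 and Srm show the widest gaps to the right, both Arg2 probe sets lie lower on the TDAG8 array, and Nos2 lies left of both floors.

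Among the enzymes that use arginine, the arginases went opposite ways. Arg1, the cytosolic arginase, was read by probe set 1419549_at at 72.1 in vector control lungs and 332.6 in TDAG8 lungs. Its log2 ratio of 2.26 ranked 46 from the top among the 11949 genes measured. Arg2, the mitochondrial arginase, read 89.9 in vector control lungs and 56.0 in TDAG8 lungs on 1418847_at. Its other probe set, 1438841_s_at, read 50.2 and 30.2, close to the floors of 26.3 and 24.3. The Arg2 log2 ratios were -0.62 and -0.67, so both probe sets were lower on the TDAG8 array. The log2 ratio of Arg1 exceeded those of Arg2 by 2.89 and 2.94.

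Nos2, the inducible nitric oxide synthase of activated macrophages, gave no usable ratio. Its 1 probe set, 1420393_at, read 4.6 in vector control lungs and 4.7 in TDAG8 lungs, below the floor on both arrays. The values set only an upper bound on the signal and do not show that the gene was silent.

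The sequences before the start of Odc1 and of its inhibitor Oaz1 are shown because they belong to the synthetic enzyme that differed between the arrays and to the antagonist whose difference was much smaller. They are the 250 bases before the transcription start, 5′ to 3′ on the gene's strand, from RefSeq with the build GRCm38.p6. Capitals mark matches to TGACG, the core of the cyclic AMP response element, or to GGGCGG, the GC box, on either strand.
Odc1, chr12:17544623-17544872, plus strand: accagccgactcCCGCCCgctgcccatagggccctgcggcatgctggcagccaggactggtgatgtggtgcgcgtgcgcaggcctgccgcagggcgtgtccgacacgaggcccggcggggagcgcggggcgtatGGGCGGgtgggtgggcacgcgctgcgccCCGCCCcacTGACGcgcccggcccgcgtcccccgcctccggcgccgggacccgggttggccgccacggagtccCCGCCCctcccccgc
Oaz1, chr10:80826406-80826655, plus strand: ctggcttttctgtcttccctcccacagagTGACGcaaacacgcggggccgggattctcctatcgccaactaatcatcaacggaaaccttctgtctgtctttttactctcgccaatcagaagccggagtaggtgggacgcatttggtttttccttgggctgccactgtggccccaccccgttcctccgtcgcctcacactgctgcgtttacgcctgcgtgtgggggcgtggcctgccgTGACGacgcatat

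The Odc1 window held 4 GC boxes and 1 TGACG, the latter starting 79 bases before the transcription start. The Oaz1 window held no GC box and 2 copies of TGACG, starting 221 and 13 bases before it. Across 32851 windows of 250 bases in the table, which can hold several starts of 1 gene, 32.7% had at least 1 GC box, 8.47% had 3 or more and 17.8% had at least 1 TGACG. The full cyclic AMP response element TGACGTCA, which contains TGACG on both strands, was in 1.55% of windows and in neither of these. CACGTG, the E-box that Myc can bind, was in 6.02% of windows and in neither of these. GC content was 80.0% in the Odc1 window and 58.0% in the Oaz1 window, against a median of 52.4% over all windows. These are letter matches in these windows only. Of the other members the table also held Sms, Amd1 and Sat1. The Sat1 window held 2 GC boxes, and the Amd1 window 1 GC box and 1 TGACG. For Sms, 1 window held 4 GC boxes and the other 1 CACGTG. A link between such matches and the ratios was not tested. In all, windows were available for 5 of the 10 members. There was none for Arg1, Arg2, Nos2, Azin1 and Srm, so these genes were not searched for matches.

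Odc1 was higher on all 3 of its probe sets. The brightest, 1438761_a_at, read 1024.9 in vector control lungs and 3104.6 in TDAG8 lungs. On 1437711_x_at the values were 768.5 and 1998.4, and on 1427364_a_at they were 131.0 and 666.7. The folds were 3.15, 2.71 and 5.30, so the size of the difference depended on the probe set while its direction did not. The log2 ratios spanned 0.97, wider than the 90th percentile of 0.80 for 1200 genes with exactly 3 probe sets over the floor of each array. All 3 carry suffixes (_a_at, _x_at) that Affymetrix gives to probe sets able to match more than 1 transcript, and the part of related transcripts in their signal was not tested.

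Srm was the other member of the synthetic arm with a clear gap between the arrays. Its 1 probe set, 1421260_a_at, read 301.8 in vector control lungs and 798.5 in TDAG8 lungs, a log2 ratio of 1.46. This lay inside the span of the Odc1 probe sets, from 1.44 to 2.41. The probe sets listed for Sms together with its pseudogene disagreed in direction. On 1421052_a_at the intensity was 317.5 in vector control lungs and 488.1 in TDAG8 lungs, 1.60-fold higher. On 1434190_at it was 181.1 and 136.8, and on 1428699_at it was 31.2 and 24.7, 1.27-fold and 1.21-fold lower. No direction can be given for Sms from these values. The log2 ratio of Srm exceeded those of the 3 Sms probe sets by 0.78 to 1.81.

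The regulators of ornithine decarboxylase differed little beside the enzyme itself. Oaz1 read 3331.7 in vector control lungs and 3840.1 in TDAG8 lungs on 1436292_a_at, 1.20-fold higher. On 1428868_a_at, which also lists Oaz1-ps, it read 1701.6 and 2326.3, 1.42-fold higher. Azin1 was higher on all 3 probe sets: 1450714_at read 603.4 and 701.6, 1422702_at read 324.2 and 443.1, and 1430984_at read 70.2 and 105.5. These were folds of 1.21, 1.42 and 1.57. The log2 ratio of Odc1 exceeded that of Oaz1 in all 6 pairs of their probe sets, by 0.93 to 2.14, and that of Azin1 in all 9, by 0.79 to 2.13. Antizyme is made through a translational frameshift that polyamines promote, a step that RNA levels do not report.

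Sat1, the acetylase on the breakdown side, read 811.5 in vector control lungs and 983.5 in TDAG8 lungs on 1420502_at, 1.26-fold higher. The 3 Odc1 log2 ratios exceeded it by 1.10 to 2.07.

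The only yardstick of error in these files is how well probe sets of 1 gene agree, since they read the same pair of RNA pools. Over 4775 genes with at least 2 probe sets over the floor of each array, the pooled SD of the log2 ratio within a gene was 0.27. For the 2875 genes with exactly 2 the median difference was 0.22 and the 90th percentile 0.62. For the 267 such genes with a mean log2 intensity of 9 or more, the class of Azin1, Oaz1 and Sat1 by the probe set that stood for each, the median was 0.13 and the 90th percentile 0.35. By those probe sets the log2 ratios of Azin1 and Oaz1, 0.28 and 0.26, lay between those values and that of Sat1, 0.34, near the upper one. The other Azin1 probe sets, at 0.51 and 0.65, and the Oaz1 one that also lists Oaz1-ps, at 0.51, lay above 0.35. For genes with a mean log2 intensity of 7 to 9 the 90th percentile was 0.51. The log2 ratios of Arg1, Odc1 and Srm were 1.44 or more on every probe set. Those of Arg2, -0.62 and -0.67, were close in size to the 90th percentile of 0.70 for genes with a mean log2 intensity under 7. This spread holds nothing of the variation between mice or between arrays.

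**Figure D2:**
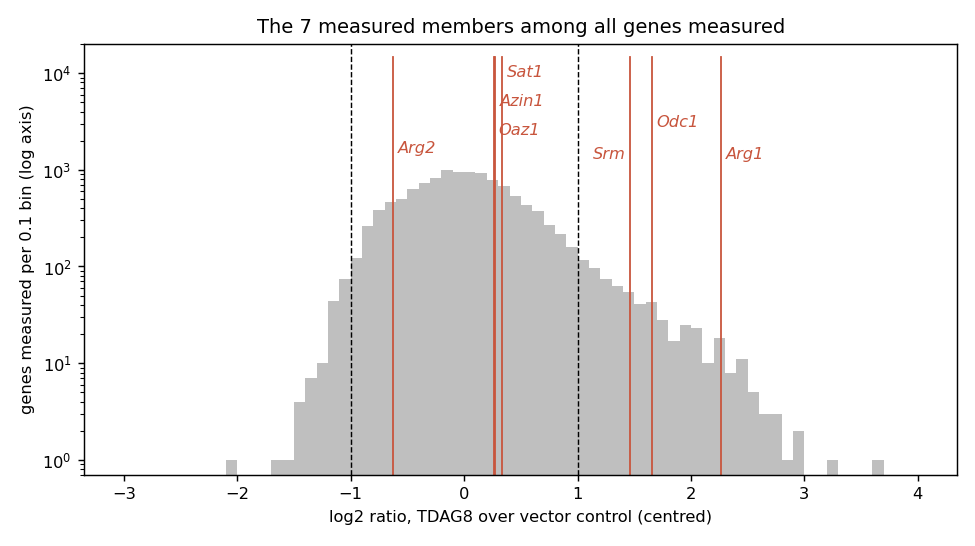
Histogram of the centred log2 ratio over the 11949 genes measured (counts on a log axis, bounds included), with the 7 measured members as red lines and 2-fold as dashed lines. Arg1, Odc1 and Srm lie in the right tail, Sat1, Azin1 and Oaz1 close together just right of 0, and Arg2 left of 0.

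The rest of the pathway was described with 8 lists of 55 other genes, of which 41 were measured, 8 were below the floor on both arrays and 6 had no probe set of their own. Of the 41 genes 5 were at least 2-fold higher, or 12.2%, against 5.41% of all genes measured, and 0 were at least 2-fold lower, against 1.19%. The count of higher genes was 3 under 4 of the 8 alternative settings, so it is not read as an excess over all genes. Their median log2 ratio was -0.04, with 19 above 0 and 22 below. The median lay close to that of all genes measured, and the larger differences belonged to few genes.

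The gene beside the aminopropyl transfer steps was among those 5. Mtap, which salvages the methylthioadenosine released each time Srm or Sms adds an aminopropyl group, read 189.2 in vector control lungs and 572.6 in TDAG8 lungs, 3.15-fold higher. Its other 3 probe sets gave log2 ratios of 1.93, 2.03 and 2.08, above the 1.66 of the brightest, so all 4 were at least 2-fold higher. Mri1, the next enzyme of methionine salvage, had a log2 ratio of 0.71. Of the 7 measured genes of S-adenosylmethionine supply and methylthioadenosine salvage 4 lay above 0, with a median of 0.04 that turned to -0.01 without centring and to -0.03 with quantile normalization. Mat2b, a regulatory subunit of the synthetase and the brightest of them, was at -0.23.

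Genes of other routes to and from ornithine or arginine gave mixed values. Aldh18a1, which makes the precursor of proline and ornithine from glutamate, read 161.4 in vector control lungs and 380.1 in TDAG8 lungs, 2.45-fold higher. Its other measured probe sets gave log2 ratios of 0.65, 1.19 and a lower bound of 1.45. Oat, which turns ornithine into that same precursor, read 1413.2 and 1166.3, a log2 ratio of -0.22. Gatm, which starts creatine synthesis from arginine and releases ornithine, read 40.5 and 130.3, 3.35-fold higher on its 1 probe set, and Gamt, the next enzyme, was at 0.52. With the floor at the 65th percentile the control value of Gatm fell below it, and the log2 ratio became a lower bound of 1.11. Asl, which remakes arginine in the citrulline cycle, was at 0.13, and its partner Ass1 read 12.6 and 13.5, below the floor on both arrays.

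In the nitric oxide branch 3 of 9 measured genes lay above 0, with a median log2 ratio of -0.19. Gch1, which starts synthesis of the synthases' cofactor tetrahydrobiopterin, was 2.02-fold higher, from 96.7 to 187.6, but its second probe set was at 0.43. Nos1, the neuronal synthase, was 2.05-fold higher, from 33.4 to 65.8. Its second measured probe set read 16.8 in vector control lungs, below the floor, and 46.5 in TDAG8 lungs, a lower bound of 0.88. A floor at the 65th percentile left for Nos1 a lower bound of 0.12. Neither Gch1 nor Nos1 was 2-fold higher without centring (log2 ratios of 0.96 and 0.98), and Gch1 was under 2-fold in 6 of 9 alternatives. Nostrin, an adaptor of the endothelial synthase and the brightest of the list, was at -0.63, and the endothelial synthase Nos3 read 123 and 85.5, a log2 ratio of -0.47.

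Carriers of arginine and ornithine lay on both sides of 0, 4 above and 4 below, and 0 of 8 were 2-fold different. Over all genes measured 5.41% were at least 2-fold higher and 1.19% lower, so 0 of 8 is not read as a result. Slc7a3, at 18.8 in vector control lungs and 31.1 in TDAG8 lungs, was below the floor on the vector control array. Its log2 ratio of 0.30 is thus a bound. Slc7a1, the main cationic amino acid carrier of dividing cells, went from 235.6 to 353.4, a log2 ratio of 0.64, and Slc7a6 was at 0.67. With the mean over a gene's probe sets, Slc7a1 was at 0.96 and Slc7a6 at 0.79. Slc7a2, the carrier induced in activated macrophages and also present in other tissues, went from 244 to 131.5, a log2 ratio of -0.83. Its other measured probe sets, both under 50 on both arrays, were at -0.61 and 0.05. The mitochondrial carrier Slc25a29 was at -0.69 on its brightest probe set and between -0.53 and -0.14 on its others. The shared heavy chain Slc3a2, the brightest of the list, was at -0.28.

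Genes of polyamine control, breakdown and transport other than the members were lower in 5 of 6 cases, with a median log2 ratio of -0.36. Of these 6 genes 0 were 2-fold different, which is not read as a result beside shares of 5.41% higher and 1.19% lower over all genes measured. Sat2, at 33.2 in vector control lungs and 12.9 in TDAG8 lungs, was below the floor on the TDAG8 array. Its log2 ratio of -0.39 is thus a bound and does not show a difference under 2-fold. Oaz2, a second antizyme, read 933 in vector control lungs and 664 in TDAG8 lungs, a log2 ratio of -0.43, and its second measured probe set was at -0.62. Oaz1 and Oaz2 had ratios of opposite sign on all probe sets measured. Smox, the spermine oxidase, was the 1 gene above 0, at 0.36. The lysosomal polyamine exporter Atp13a2 was at -0.44, and at -0.28 and -0.02 on its other probe sets. In the hypusine list, whose genes use spermidine to modify the translation factor eIF5A, 3 of 4 genes lay above 0 with a median of 0.35. Eif5a was at 0.53 and 0.84 on its probe sets and Dohh, the hydroxylase, at 0.60.

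**Figure D3:**
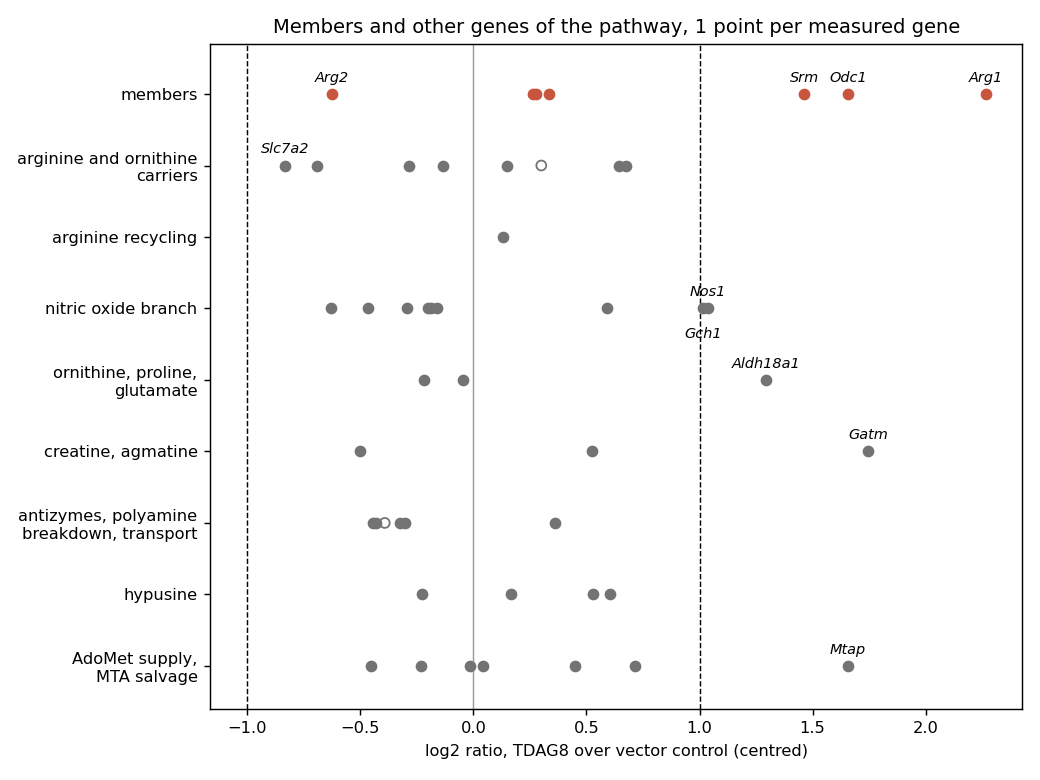
Centred log2 ratio of each measured gene of the members (red) and of the 8 other lists (grey), with 2-fold as dashed lines and open circles for bounds, where 1 array was below its floor. Beside Arg1, Odc1 and Srm, the genes right of the 2-fold line are Gatm, Mtap, Aldh18a1, Nos1 and Gch1, and no gene lies left of -1.

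Other gene groups differed between the same arrays, on which 5.41% of all genes measured were at least 2-fold higher and 1.19% lower. Of 14 measured proliferation genes, 13 were at least 2-fold higher and all 14 above 0. Their median log2 ratio was 2.27, and their summed intensity was 2348 in vector control lungs and 7230 in TDAG8 lungs. Myc, a transcription factor known to act on Odc1, went from 162 to 998.5, 6.42-fold. Of 15 macrophage markers 9 were at least 2-fold higher and 12 above 0. Their median was 1.20, with sums of 10510 and 12813, of which Lyz2 alone made up 6650 and 6002. Of 7 measured markers of alternative macrophage activation, a state in which Arg1 is also known to be made, 5 were below 0 and 2, Retnla and Ccl17, at least 2-fold lower, with a median of -0.71 and sums of 6399 and 3325. Clec10a and Il4ra were the 2 above 0, at 0.58 and 0.16. Retnla read 2281 in vector control lungs and 825 in TDAG8 lungs, and Chil3 read 3662 and 2148, the largest parts of those sums. The 7 measured neutrophil markers had a median of 0.10, with sums of 2346 and 2244. Of the markers with a probe set, 7 of 10 for alternative activation and 7 of 10 for neutrophils were measured, and the rest were below the floor on both arrays. The macrophage markers Msr1 and Trem2 were below the floor on the vector control array only, so their ratios are bounds. The part of cell composition in the ratios of Arg1, Odc1 and Srm was not tested, and in RNA of whole lungs fewer cells of a type and less RNA per cell cannot be told apart.

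Lung identity and the label of the overexpressed gene were checked once. All measured alveolar type 1, alveolar type 2, club and ciliated, and endothelial markers, 7, 6, 7 and 10 genes, were below 0, with medians from -0.76 to -0.44. They were above the floor on both arrays except the ciliated markers Dnah5 and Tekt2, which were below it on the TDAG8 array. The log2 ratios of Dnah5 and Tekt2, -1.11 and -1.23, are thus bounds. With quantile normalization 1 airway marker lay at 0. The lower values of Nos3 and Nostrin stand beside an endothelial median of -0.76, and the part of vessel cells in them was not tested. Gpr65 read 32.3 in vector control lungs and 73.9 in TDAG8 lungs on 1 mouse probe set whose match to the transgene is unknown.

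**Figure D4:**
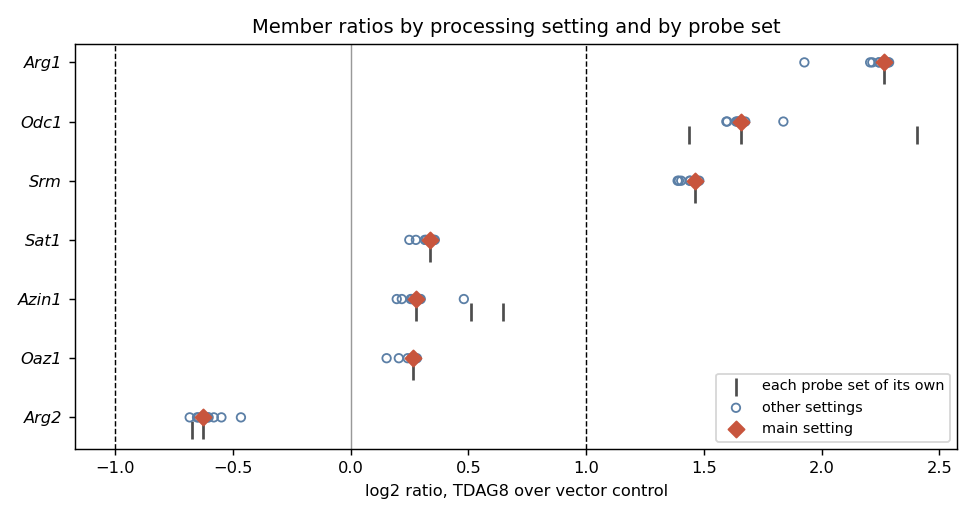
Log2 ratio of each measured member under the main setting (red diamonds), under the other processing settings (blue circles) and for each probe set of its own (grey ticks), with 2-fold as dashed lines. Arg1, Odc1 and Srm lie right of 1 under every setting that gave a value, and Arg2 lies between -1 and 0.

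The processing left the signs of the 7 measured members in place. Over 8 alternative settings and 1 chosen after the data were seen, Arg1 ranged from 1.93 to 2.29, Odc1 from 1.60 to 1.84, Srm from 1.39 to 1.48 and Arg2 from -0.68 to -0.47. Odc1, Srm and Oaz1 had no value when probe sets with the suffixes _s_at, _x_at or _a_at were left out. Then 1 member, Arg1, was at least 2-fold higher. That filter went by suffix alone, and the specificity of the probe sets was not tested.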

How the data were processed

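The authors deposited 1 linear intensity per probe set and array. Per the labels' protocols, 2 µg of pooled total RNA was primed from the poly(A) tail and labelled with biotin. Both columns have a 2% trimmed mean of 100, so each array had been scaled. No source used here names the summarisation software, and the table holds no detection calls.

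Of 45101 probe sets, 64 controls were set aside. Genes were named from the 34945 with 1 gene symbol in the platform annotation, 34741 of which matched RefSeq (GRCm38.p6) by gene identifier, and each gene was represented by its brightest probe set (mean log2 intensity over both arrays). Values under the 50th percentile of their array were raised to it, so a ratio with 1 array there is a bound. Genes under it on both arrays were dropped. Of the 11949 kept, 905 were above it on only 1 array. Log2 ratios were centred on the median of the 11044 genes above it on both. No test was run, because each group had 1 array. Named were all members and, in each pathway list, genes at least 2-fold different, the brightest and the 2 with the largest log2 ratio; a few further genes (Slc7a1, Slc7a6, Nos3, Smox, Ass1, Retnla and Ccl17 among them) were named after their values were seen. The members and lists were chosen with earlier results of these data known. The procedure was tested on simulated data. Python 3.11.15, pandas 2.3.3, numpy 2.4.6 and statsmodels 0.14.6 were used. Alternatives replaced the centring (none, or loess with span 0.3), the scaling (quantile normalization), the floor (65th or 30th percentile, or an offset instead) or the choice of probe set (mean over a gene's probe sets, or none with the suffixes _s_at, _x_at or _a_at). A setting chosen after the data were seen admitted probe sets that also list a pseudogene of Sms or Oaz1.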

Additional observations from a re-analysis of the deposited data

How the results depend on the processing

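Of 60 values of the 7 measured members under the alternatives, 60 kept their sign, their side of 2-fold and stayed within 1.5-fold of the main value. The median log2 ratio of the members ranged from 0.25 with quantile normalization to 0.51 with probe sets that also list a pseudogene admitted. The count of members at least 2-fold higher was 3 and became 1 without probe sets with the suffixes _s_at, _x_at or _a_at, because Odc1 and Srm had no others. Without centring, with the floor at the 65th percentile, with the offset and with the mean over probe sets, 3 in place of 5 other pathway genes were at least 2-fold higher, Gch1 and Nos1 being those lost. With quantile normalization and with loess centring the count was 4, without Gch1, which was thus under 2-fold in 6 of 9 alternatives. With the floor at the 30th percentile 1 in place of 0 was at least 2-fold lower, Sat2 at -1.29. Of 359 values of those 41 genes, 341 stayed within the limits used for the members, 12 crossed 2-fold or moved by over 1.5-fold, and 6 changed sign, all of them of Adi1, Apip or Slc7a7, whose main log2 ratios were at most 0.135 from 0. No paired analysis was possible because each group had 1 array. Signal near the floor limits Arg2, Nos1, Gatm and the dimmest Sms probe set.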
